A study of Mus musculus with 2 samples.

Results

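The 10 integrin chains Itga1, Itga2, Itga3, Itga5, Itga6, Itgav, Itgb1, Itgb4, Itgb5 and Itgb8 were read by symbol from the 32285 genes of the count tables, and all 10 of 10 were found. They were followed across marker-gated lens and blood vessel cells in 2 pools of lens epithelium. Each pool held lenses of 4 to 8 wild-type C57BL/6N mouse pups at postnatal day 2 (P2), with no treatment and no second genotype or age. The capsule with its epithelial sheet was peeled from the fiber mass and dissociated with collagenase, dispase and trypsin, and single cells were counted by 10x Genomics 3′ sequencing.

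Integrins are cell surface receptors made of 1 alpha and 1 beta chain, and the pair decides which matrix protein is bound. Itga3 and Itga6 pair with Itgb1 to bind laminin, and Itga6 with Itgb4 anchors hemidesmosomes. Itga1 and Itga2 pair with Itgb1 to bind collagen. Itga5 with Itgb1 binds fibronectin, and Itgav pairs with Itgb1, Itgb5 or Itgb8 to bind ligands that carry the RGD motif, among them vitronectin and latent TGF-beta. In the lens, epithelial and young fiber cells hold on to the capsule, a thick basement membrane rich in type IV collagen and laminin. The embryonic and neonatal lens is also wrapped in a transient vessel net, the tunica vasculosa lentis, made of endothelial cells and of mural cells (pericytes and smooth muscle cells) that surround them. The tunica was trimmed away before peeling, so vessel cells here are those left on the sheet.

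The 2 pools held 12314 and 9425 barcodes with a median of 6307 and 8050 unique molecular identifiers (UMIs, counted transcripts). Limits on genes, UMIs, mitochondrial share and doublet score left 10658 and 7836 barcodes, and 27 barcode sequences occurred in both pools. Cells were grouped by marker genes, none of them an integrin. Lens epithelial cells (LECs) numbered 10104 and 7354. The highest 12% of LECs by 13 fiber genes were called late differentiating (1212 and 882), and the next 15% by Cdkn1c, Ccdc80, Adamtsl4, Basp1 and Nnat were called early differentiating (1516 and 1103). Of the rest, LECs with a positive S or G2M score were called cycling (2771 and 2653) and the others resting (4605 and 2716). Endothelial cells numbered 339 and 224, mural cells 175 and 220, and macrophages 30 and 28. The LEC gate held Pax6, the eye field factor, at 332 and 299 UMIs per 1000000 UMIs of the group (CPM), and Foxe3, a factor of the lens epithelium, at 3.56 and 4.97. Cldn5, a tight junction gene of endothelium, and Rgs5, a pericyte gene, were in LECs at no more than 0.0521% and 0.0179% of their level in endothelial and mural cells. Both are gate genes, and barcodes with 3 or more markers of a vessel group were kept out of the LEC gate. These low shares are therefore partly set by the gating and are no independent check of it. No gated LEC, endothelial or mural barcode carried 3 or more of the melanocyte, fibroblast, neural or corneal markers.

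Lens RNA was found in vessel cells and bears on any chain that is higher in LECs. In endothelial cells the alpha crystallins Cryaa and Cryab stood at 8.08% and 6.07% of their LEC level in replicate 1 and at 16.8% and 7.49% in replicate 2, and Pax6 at 5.67% and 8.14%. In mural cells Cryaa stood at 26.1% and 7.87%, Cryab at 20.7% and 13.0%, and Pax6 at 15.5% and 16.9%. The part of this lens RNA in the vessel levels below was not tested, except where vessel barcodes rich in alpha crystallin were left out (which kept 325 of 339 and 212 of 224 endothelial, and 160 of 175 and 212 of 220 mural barcodes). Levels are UMIs of transcript ends and were not divided by gene length. Log2 fold changes and their standard errors (SE) are from edgeR's quasi-likelihood test on UMI sums per pool, with TMM scaling and the pool as a block, and p-values are Benjamini-Hochberg adjusted over all genes tested. With the pool as a block, SE and p-values rest on counting error and on how far differences between groups disagree between these 2 pools. That spread is estimated with information shared over all genes. A small SE therefore does not show that the 2 pools agree on a given chain. A difference between the pools that all groups share is taken out by the block.

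**Figure D1:**
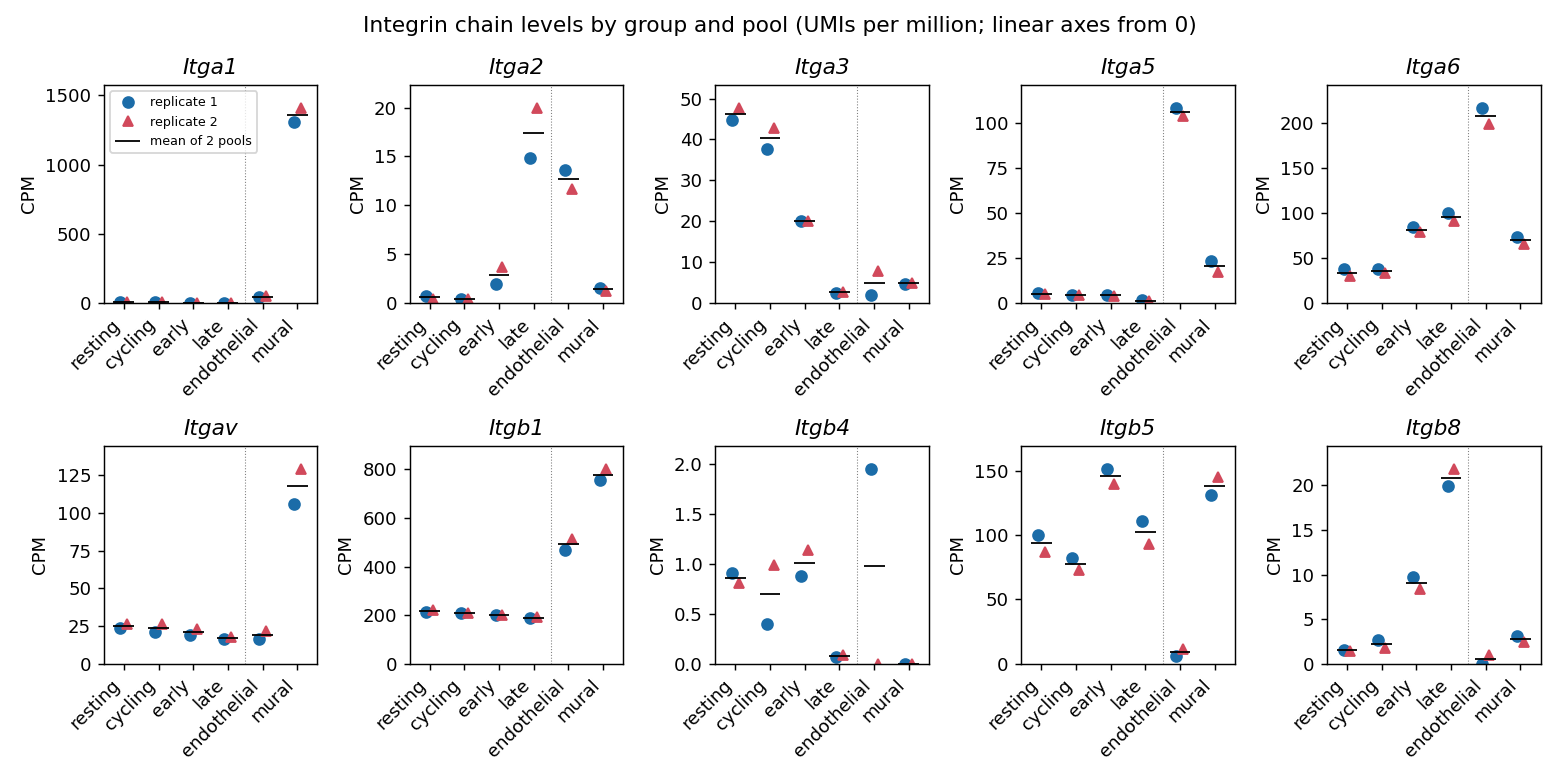
CPM of the 10 integrin chains (panels, linear axes from 0) in 4 groups of LECs and 2 groups of vessel cells, with replicate 1 as circles, replicate 2 as triangles and the mean as a line. Itga1 reaches 1305 and 1407 CPM in mural cells, Itga3 is highest in resting LECs and Itga2 and Itgb8 in late differentiating LECs, while Itgb4 is at or under 1.95 CPM in every group.

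Among the 6 alpha chains followed here, the one with the most UMIs differed between groups. Of the UMIs of the 6 alpha chains, Itga3 made up 38.2% and 41.6% in resting LECs, Itga6 made up 63.9% and 60.0% in early and 73.8% and 68.7% in late differentiating LECs, and Itga1 made up 86.2% and 86.6% in mural cells. In endothelial cells Itga6 led with 54.6% and 50.2%. Relative to Itgb1, the shared beta chain, the alpha chains summed to 0.549 and 0.522 UMIs per Itgb1 UMI in resting LECs, 0.655 and 0.650 in early and 0.719 and 0.689 in late differentiating LECs, 0.847 and 0.767 in endothelial cells and 2.00 and 2.03 in mural cells. The replicates of these groups did not overlap between neighbours in that order, whereas cycling LECs at 0.500 and 0.539 overlapped resting LECs. In mural cells Itga1 alone gave 1.73 and 1.75 UMIs per Itgb1 UMI. These ratios compare transcript ends of different genes and carry no test. The shares and sums leave out other alpha chains, among them Itga4, Itga7 and Itga9. Itga4, another partner of Itgb1, was at 279 and 332 CPM in mural cells, 58.4 and 82.8 in endothelial cells and 0.323 and 0.204 in LECs. The sums are thus less complete in vessel cells than in LECs.

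**Figure D2:**
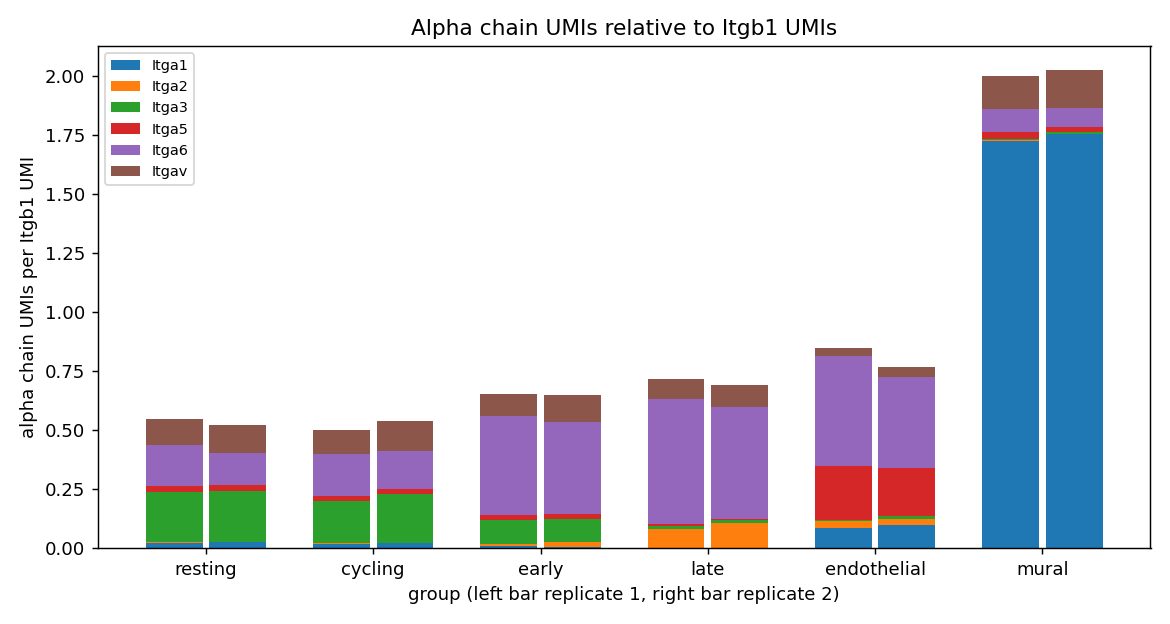
UMIs of the 6 alpha chains per Itgb1 UMI, stacked, in each group (left bar replicate 1, right bar replicate 2). Itga3 (green) is the tallest band in resting and cycling LECs, Itga6 (purple) in early, late and endothelial cells, and Itga1 (blue) fills most of the mural bars, which reach 2.00 and 2.03.

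Itga3, a laminin-binding chain, was highest in resting LECs. It was at 44.7 and 47.6 CPM there, 37.8 and 42.7 in cycling LECs, 19.9 and 20.1 in early and 2.50 and 2.70 in late differentiating LECs. No LEC group overlapped its neighbour, and the order was the same in both pools. Itga3 fell by 1.16 on the log2 scale from resting to early differentiating LECs (SE 0.077, adjusted p = 7.18e-12) and by 2.44 from early to late (SE 0.15). Along 10 equal bins of the fiber gene score its level did not decline evenly: it lay between 37.7 and 46.8 CPM in the 8 lower bins of both pools, then stood at 14.7 and 13.0 in the ninth and at 2.09 and 2.13 in the tenth. In vessel cells Itga3 rested on few UMIs, 3 and 8 in endothelial and 3 and 4 in mural cells, which is 6.43% and 23.5% of the LEC level in endothelial and 15.5% and 14.8% in mural cells. The 3 lens markers ran from 5.67% to 16.8% in endothelial and from 7.87% to 26.1% in mural cells. Endothelial cells were called lower than LECs (log2 fold change -3.06, SE 0.35), at -4.10 in replicate 1 and -2.26 in replicate 2. Mural cells were also called lower than LECs (-2.89, SE 0.43). When vessel barcodes with 1% or more of alpha crystallin UMIs were left out, the log2 fold changes were -3.49 in endothelial and -3.96 in mural cells. A UMI of Itga3 was found in 21.5% and 27.0% of resting LECs (8.16% and 9.86% after thinning each barcode to 2000 UMIs) and in 0.885% and 3.57% of endothelial cells (0.398% and 1.59% thinned).

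Itga6, the other laminin-binding alpha chain, went the opposite way within the lens. It was at 37.7 and 29.7 CPM in resting, 37.5 and 33.2 in cycling, 84.4 and 78.1 in early and 99.5 and 90.8 in late differentiating LECs. Resting and cycling LECs overlapped, and both lay under the early and late groups in each pool. The early to resting log2 fold change was 1.31 (SE 0.062), and that of late against early was 0.73 (SE 0.057), or 0.23 with scaling by library size alone. Along the fiber score Itga6 lay between 33.4 and 53.1 CPM in the 8 lower bins and at 80.5 and 80.9 in the ninth, so that its rise and the loss of Itga3 fell in the same bins. Its highest level was in endothelial cells, at 216 and 199 CPM, a log2 fold change of 1.75 against LECs (SE 0.11, adjusted p = 1.59e-08). Mural cells, at 73.3 and 65.2 CPM, lay 0.20 above LECs on the log2 scale (SE 0.15), which did not pass the test (adjusted p = 0.293).

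Itgb4, the hemidesmosome partner of Itga6, was close to 0 throughout. It was at most at 1.14 CPM in resting, cycling, early or late LECs, at 0.0694 and 0.0870 CPM in late differentiating LECs (1 UMI in each pool), at 3 and 0 UMIs in endothelial cells and at 0 in mural cells of both pools, which allows up to 4.68 and 3.69 CPM there (3 UMIs of each total, counting error only). Its fall from early to late differentiating LECs passed the test with a log2 fold change of -3.09 (SE 0.81, adjusted p = 0.00281) at these low counts, and it was filtered out of the comparisons with vessel cells. Of 7 genes of hemidesmosomes and of tetraspanins, the membrane partners of laminin-binding integrins, 6 were tested. Plec (plectin) and Dst (dystonin), which link hemidesmosomes to the cytoskeleton, were higher in early differentiating than in resting LECs, Plec at 77.8 and 74.7 against 47.2 and 46.2 CPM and Dst at 132 and 131 against 69.4 and 58.9. Early against resting, 2 of the 6 were higher and 3 lower, and late against early 5 were higher and 1 lower, or 1 and 4 with scaling by library size alone. Of all genes 44.6% and 50.3% passed in these comparisons. Plec was at 137 and 130 CPM in late differentiating LECs. Col17a1 was not among the genes tested.

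**Figure D3:**
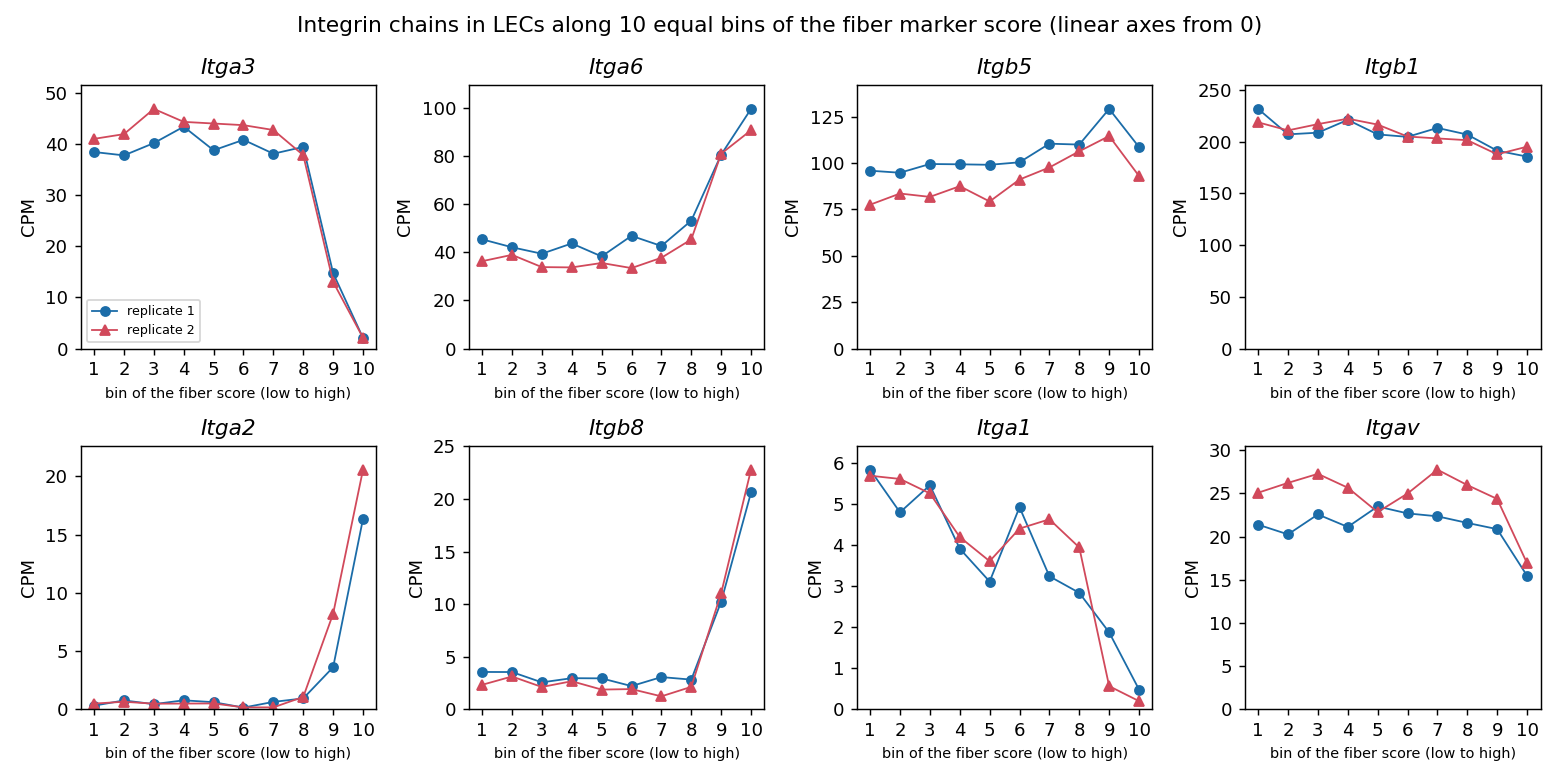
CPM of 8 integrin chains in LECs along 10 equal bins of the fiber gene score (x axis, low to high) for replicate 1 (circles) and replicate 2 (triangles), on linear axes from 0. Itga3 lies between 37.7 and 46.8 CPM until bin 8 and falls to 2.09 and 2.13 in bin 10. Itga6, Itga2 and Itgb8 rise in bins 9 and 10, and the CPM of Itgb5 is highest in bin 9. The bins carry no TMM scaling and no test. With TMM scaling, Itgb5 in late against early differentiating LECs did not differ by the edgeR test (-0.0032, adjusted p = 0.968).

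The collagen-binding chains Itga1 and Itga2 are neighbouring genes. In GRCm38 (mm10, GENCODE vM21) Itga2 lies at chr13:114833081-114932100 and Itga1 at chr13:114953096-115101964, both on the minus strand and 20995 bases apart, and the gene Pelo lies inside the Itga1 locus on the same strand. The 250 bases before the RefSeq start of each (GRCm38.p6, minus strand, 5′ to 3′) are shown because the 2 genes were high in different cells, Itga1 at chr13:115101965-115102214 and Itga2 at chr13:114932101-114932350.
Itga1: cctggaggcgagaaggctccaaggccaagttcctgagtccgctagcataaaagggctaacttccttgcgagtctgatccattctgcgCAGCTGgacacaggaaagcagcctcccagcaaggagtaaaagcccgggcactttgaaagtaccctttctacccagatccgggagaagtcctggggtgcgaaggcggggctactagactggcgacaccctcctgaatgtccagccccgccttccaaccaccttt
Itga2: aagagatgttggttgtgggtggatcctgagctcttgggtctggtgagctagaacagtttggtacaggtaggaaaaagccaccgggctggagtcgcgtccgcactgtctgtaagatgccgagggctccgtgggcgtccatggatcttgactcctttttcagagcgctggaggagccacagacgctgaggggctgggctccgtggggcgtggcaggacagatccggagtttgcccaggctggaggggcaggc
Their GC content was 57.6% and 60.8%, against a median of 52.4% over the windows of this length before all RefSeq starts. Capitals mark CANNTG, an E-box, found 1 time before Itga1 and not before Itga2, and in 66.2% of 32851 such windows. TGCTGA (16.1% of windows, the core of the sites of Maf factors), GGGCGG (32.7%, a GC box) and the CArG box of serum response factor (1.47%) were searched on both strands and had no match in either window. Promoter entries were found for 8 of the 10 chains.

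Itga1 was far higher in mural cells than in any other group. It was at 1305 and 1407 CPM in mural cells, 39.5 and 51.6 in endothelial cells, 5.06 and 5.57 in resting LECs, 4.01 and 4.57 in cycling LECs, 2.01 and 1.23 in early and 0.416 and 0.261 in late differentiating LECs. No 2 neighbouring groups overlapped. Mural cells lay 8.46 above LECs on the log2 scale (SE 0.10, a 352-fold difference) and 4.95 above endothelial cells (SE 0.11). A UMI of Itga1 was found in 90.3% and 93.6% of mural cells (88.9% and 89.3% thinned to 2000 UMIs, median depth 3345 and 3512 UMIs), 14.7% and 19.2% of endothelial cells and 2.28% and 2.90% of LECs (median depth 6247 and 8105). None of the 58 macrophages had one, which allows a share of barcodes with a UMI of up to 5.17% and a level of up to 19.3 and 22.8 CPM. The LEC level was 0.256% and 0.251% of the mural level, above the 0.0167% and 0.0179% at which Rgs5 was found there. Rgs5 is a gate gene, so its share in LECs is partly set by the gating, whereas that of Itga1 is not. In LECs Itga1 fell by 1.65 on the log2 scale from resting to early differentiating cells (SE 0.24) and by 1.71 from early to late (SE 0.48, adjusted p = 0.00501). The latter rested on 6 and 3 UMIs in late cells and did not pass with barcodes thinned to 2000 UMIs (-1.34, adjusted p = 0.379) or when the late and early gates took 8% and 10% of LECs (-1.04, adjusted p = 0.220).

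Itga2 followed a different course. It was at 0.745 and 0.432 CPM in resting, 0.351 and 0.388 in cycling, 1.92 and 3.70 in early and 14.8 and 19.9 in late differentiating LECs, at 13.6 and 11.7 in endothelial cells and at 1 UMI in the mural cells of each pool. Late differentiating LECs were above every other LEC group in both pools, with a log2 fold change of 3.14 against early (SE 0.18). The step from resting to early was 2.18 (SE 0.33), but the 2 pools differed in it, at 1.31 in replicate 1 and 2.87 in replicate 2, and it did not pass when the late and early gates took 18% and 20% of LECs (0.46, adjusted p = 0.424) or with barcodes thinned to 2000 UMIs (0.69, adjusted p = 0.523). A UMI of Itga2 was found in 15.02% and 22.1% of late differentiating LECs (2.73% and 3.32% thinned), 0.413% and 0.295% of resting LECs and 0.571% and 0.455% of mural cells. Median depth was 11967 and 13363 UMIs in late differentiating, 5427 and 6823.5 in resting LECs. Endothelial cells lay 1.48 above LECs as a whole (SE 0.30, adjusted p = 9.24e-04).

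The genes for collagen chains, the ligands of Itga1 and Itga2, were read beside them. Mural cells held the fibrillar collagens Col3a1 at 242 and 288 CPM and Col1a2 at 264 and 298, against 0 and 0.974 and against 1.95 and 1.95 in endothelial cells. Of 8 collagen genes tested, 7 were higher in mural than in endothelial cells, where 18.2% of all genes were higher. Their median log2 fold change was 1.45 where that of all genes was -0.026. Col4a1, a chain of basement membrane collagen, was at 4787 and 5739 CPM in mural cells and 1812 and 2033 in endothelial cells. In LECs it fell while Itga2 rose. Col4a1 was at 2634 and 2791 CPM in resting, 1377 and 1418 in early and 639 and 645 in late differentiating LECs. Early against resting, 5 of 7 collagen genes tested were lower and 2 higher, and late against early 5 were lower and 2 higher, or 7 and 0 with scaling by library size alone. Their medians were -0.96 and -0.45, beside -0.0021 and -0.033 for all genes. Of all genes 22.2% were lower and 22.4% higher in early against resting LECs, and 25.1% and 25.2% in late against early. With library size alone 9013 of all genes were lower and 860 higher in late against early.

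Itgb1, the beta chain that pairs with most of these alpha chains, had CPM that varied least between the 4 LEC groups, although its TMM fold changes did not. It was at 213 and 219 CPM in resting, 210 and 207 in cycling, 202 and 200 in early and 188 and 192 in late differentiating LECs. These groups did not overlap. The difference of early and resting LECs did not pass the test (log2 fold change -0.064, SE 0.044, adjusted p = 0.259), although it did with library size alone (-0.11). That of late and early passed at 0.42 (SE 0.046) with TMM scaling but was -0.085 (adjusted p = 0.0826) with library size alone, so its direction depends on the scaling. Vessel cells held more, 467 and 515 CPM in endothelial cells (log2 fold change 1.05 against LECs, SE 0.074) and 756 and 802 in mural cells (1.76, SE 0.076).

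Itga5, the fibronectin-binding alpha chain, was highest in endothelial cells. It was at 108 and 104 CPM there, 23.4 and 17.2 in mural cells and at most at 5.37 CPM in resting, cycling, early or late LECs. Endothelial cells lay 4.54 above LECs on the log2 scale (SE 0.17, adjusted p = 7.36e-11) and mural cells lay below endothelial cells with a log2 fold change of -2.37 (SE 0.25). A UMI of Itga5 was found in 35.1% and 38.4% of endothelial cells (21.1% and 20.1% thinned) and in 2.81% and 3.18% of LECs. Its level in LECs was 3.82% and 3.66% of the endothelial level, against 0.0521% and 0.0427% for Cldn5, a gate gene whose share is partly set by the gating. Among LECs it was lower in late than in early differentiating cells (log2 fold change -1.34, SE 0.27), on 21 and 10 UMIs in late cells, a call lost with barcodes thinned to 2000 UMIs (-1.44, adjusted p = 0.132). Fn1, the fibronectin gene, was at 245 and 216 CPM in mural cells, 55.1 and 60.4 in endothelial cells and 10.2 and 10.5 in LECs.

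The Itgav group split by beta chain. Itgav itself, the RGD-binding alpha chain, was at 106 and 129 CPM in mural cells, 16.2 and 21.4 in endothelial cells and between 16.1 and 26.3 in resting, cycling, early and late LECs. Mural cells lay 2.23 above LECs (SE 0.16), while the endothelial level did not differ from that of LECs by the test (log2 fold change -0.46, SE 0.21, adjusted p = 0.0737). Resting and cycling LECs overlapped, as did cycling and early differentiating LECs, and neither early against resting (-0.20, adjusted p = 0.0687) nor late against early (0.19, adjusted p = 0.132) passed. With library size alone both passed, at -0.24 and -0.32. When the late and early gates took 18% and 20% of LECs both also passed, at -0.32 (adjusted p = 0.00365) and, in the other direction for late against early, at 0.28 (adjusted p = 0.0112), so the direction of that step depends on the setting.

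Itgb5, the vitronectin receptor chain, was found in every LEC group and was low in endothelium. It was at 100.1 and 86.7 CPM in resting, 82.4 and 72.8 in cycling, 151 and 140.0 in early and 111 and 93.2 in late differentiating LECs, at 131 and 145 in mural cells and at 5.84 and 11.7 in endothelial cells (9 and 12 UMIs). The endothelial level was 5.53% and 12.8% of that of LECs, where the lens markers ran from 5.67% to 16.8%, and a UMI was found in 2.06% and 2.23% of endothelial cells against 49.7% and 51.0% of LECs. The log2 fold change of endothelial cells against LECs was -3.79 (SE 0.25), at -4.36 in replicate 1 and -3.15 in replicate 2, and it was -5.58 when vessel barcodes with 1% or more of alpha crystallin UMIs were left out. Early differentiating LECs lay 0.68 above resting LECs (SE 0.052), and late did not differ from early by the test with TMM scaling (-0.0032, adjusted p = 0.968), whereas with library size alone the difference was -0.51 and passed. Mural cells against LECs stood at 0.34 (SE 0.15) and did not pass (adjusted p = 0.0873), but did with library size alone (0.50, adjusted p = 0.0163), without doublet removal (0.42, adjusted p = 0.0185), without upper limits (0.40, adjusted p = 0.0169) and without vessel barcodes rich in alpha crystallin (0.39, adjusted p = 0.0393).

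Itgb8, the chain that with Itgav activates latent TGF-beta, was highest in differentiating LECs. It was at 1.53 and 1.46 CPM in resting, 2.60 and 1.72 in cycling, 9.70 and 8.35 in early and 19.9 and 21.8 in late differentiating LECs, with 0 and 1 UMI in endothelial and 2 in the mural cells of each pool. The 4 LEC groups kept this order in both pools without overlap. Log2 fold changes were 2.64 for early against resting (SE 0.19) and 1.71 for late against early (SE 0.13, 1.20 with library size alone). A UMI was found in 19.2% and 23.0% of late differentiating LECs (3.73% and 4.12% thinned) and 0.782% and 0.994% of resting LECs (0.287% and 0.187% thinned). Like Itga2 it was low, at 3.56 CPM or less, in the 8 lower bins of the fiber score and stood at 10.2 and 11.0 in the ninth and 20.6 and 22.8 in the tenth. Tgfb2, a growth factor of the TGF-beta family, was at 394 and 333 CPM in resting, 195 and 166 in early and 110 and 118 in late differentiating LECs, with log2 fold changes of -0.97 (SE 0.051) and -0.16 (SE 0.057, adjusted p = 0.0239) for these steps under TMM scaling.

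Genes of a list drawn up for RGD-type ligands also changed with differentiation. Tgfb2 is on that list, but whether its product carries RGD or binds these chains was not tested. Mfge8, a bridging protein bound by Itgav with Itgb5, was at 390 and 317 CPM in resting and 112 and 98.3 in early differentiating LECs. Thbs1 (thrombospondin 1) was at 40.0 and 45.6 CPM in resting, 171 and 176 in early and 23.6 and 31.2 in late differentiating LECs. Early against resting, 2 of 9 genes of this list were higher and 5 lower, with a median log2 fold change of -0.70, where 22.4% of all genes were higher and 22.2% lower with a median of -0.0021. Vtn (vitronectin) was at 51.5 and 82.4 CPM in mural cells, at 0 in endothelial cells of both pools and at 0.0280 and 0.0157 in LECs. A further list held the laminins, which Itga3 and Itga6 bind, and the other basement membrane genes Nid1, Nid2 and Hspg2. Lama2 was at 31.5 and 29.5 CPM in resting, 80.6 and 77.0 in early and 13.0 and 12.3 in late differentiating LECs. Of 10 genes of this mixed list tested, 8 were lower in late than in early differentiating LECs, with a median log2 fold change of -0.75. Of all genes 25.1% were lower, with a median of -0.033. Lama4, a vessel laminin, was at 157 and 155 CPM in endothelial cells, 285 and 290 in mural cells and 0.210 and 0.220 in LECs.

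The number of chains called stands here beside that of all genes. Between endothelial cells and LECs 7 of 8 chains tested passed an adjusted p of 0.05, 5 higher and 2 lower, where 61.4% of 10300 genes passed. Between mural cells and LECs 5 of 8 passed, 4 higher and 1 lower (51.4% of genes), and between mural and endothelial cells 7 of 8, 4 higher and 3 lower (34.7%). Between early differentiating and resting LECs 6 of 10 passed, 4 higher and 2 lower, where 44.6% of 13440 genes passed. Between late and early 8 of 10 passed, 4 higher and 4 lower (50.3%). Median log2 fold changes of the chains were 1.27, 1.05, 0.44, 0.081 and 0.091 in these 5 comparisons, where those of all genes lay between -0.046 and -0.0021. With scaling by library size alone the median of all genes in late against early moved by -0.51, 8.71% in place of 50.1% of the calls were higher, and the chains split into 3 higher and 6 lower. In early against resting the chains split into 4 higher and 4 lower, with 42.9% in place of 50.1% of the calls higher. In endothelial cells and mural cells against LECs that scaling raised the share of higher calls from 49.8% to 60.6% and from 51.4% to 61.0%, with the chains at 5 higher and 2 lower and at 5 and 1.

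**Figure D4:**
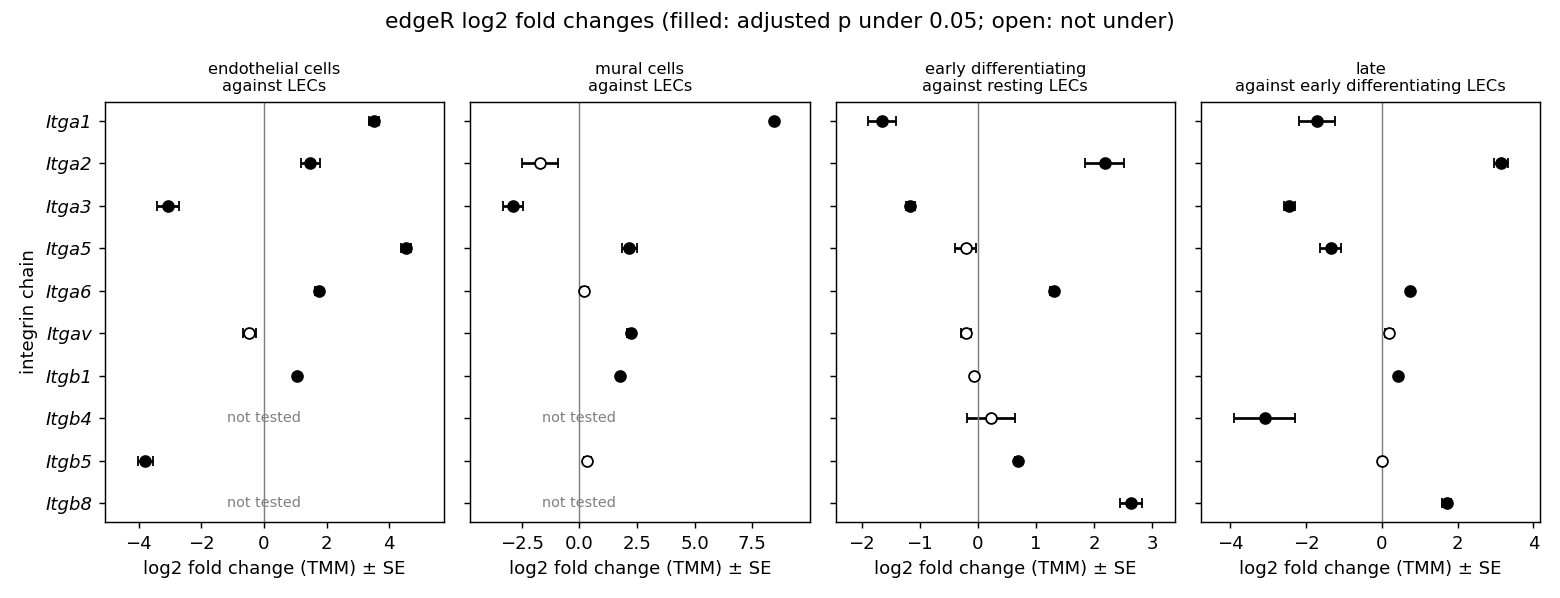
edgeR log2 fold changes (x axis, TMM scaling, bars ± SE) of the 10 chains in 4 comparisons, filled where the adjusted p was under 0.05. Itga1 is 8.46 higher in mural cells than in LECs, Itgb5 at -3.79 in endothelial cells, and Itga2 and Itga3 lie on opposite sides of 0 in both lens comparisons; Itgb1 in late against early changes from 0.42 to -0.085 with library size alone.

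Cycling LECs were compared with resting LECs. Of 10 chains tested, 3 passed, all lower in cycling cells (52.8% of 13440 genes passed): Itga3 by a log2 fold change of -0.24 (SE 0.060), Itgb5 by -0.31 (SE 0.052) and Itgb1 by -0.10 (SE 0.042, adjusted p = 0.0494). Without the replicate block 1 passed, and with DESeq2 1. The call of Itgb1 was lost in 9 of 12 alternatives, both of these included, and that of Itga3 also with gates of 8% and 10% (-0.075, adjusted p = 0.299). Of chains that did not pass, Itga2 was at -0.80 (SE 0.46) and Itgb8 at 0.47 (SE 0.23). With gates of 8% and 10% Itga2 (-1.64, adjusted p = 3.78e-04) and Itga6 (-0.27, adjusted p = 2.12e-04) passed, and without upper limits Itgb8 did (0.58, adjusted p = 0.0335). Split by phase, Itga6 was at 33.3 and 27.1 CPM in S and 39.8 and 37.8 in G2M cells, without overlap, whereas Itgb1 (211 and 199 against 209 and 212) and Itga3 (35.7 and 40.8 against 38.9 and 44.2) overlapped. S and G2M cells were not tested against each other.

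Resting LECs were also split at the pool median of Igfbp5, a secreted binder of insulin-like growth factors. Igfbp5-high cells held Itgav at 27.8 and 31.3 CPM against 19.1 and 21.3 in Igfbp5-low cells (log2 fold change 0.53, SE 0.092) and Itga3 at 49.1 and 53.0 against 40.3 and 42.2 (0.29, SE 0.068). Itgb8 was at 1.01 and 0.648 against 2.05 and 2.27 CPM (-1.33, SE 0.39) and Itga6 at 34.8 and 27.5 against 40.7 and 31.8 (-0.23, SE 0.078). Itgb1 was at 224 and 226 against 203 and 213 CPM (0.10, SE 0.034). Both pools moved the same way for each of these 5 chains. Of 9 chains tested 5 passed, where 26.4% of 12267 genes passed, but 0 passed with edgeR without the replicate block (3 at an unadjusted p under 0.05) and 0 with DESeq2 (1 at an unadjusted p under 0.05).

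**Figure D5:**
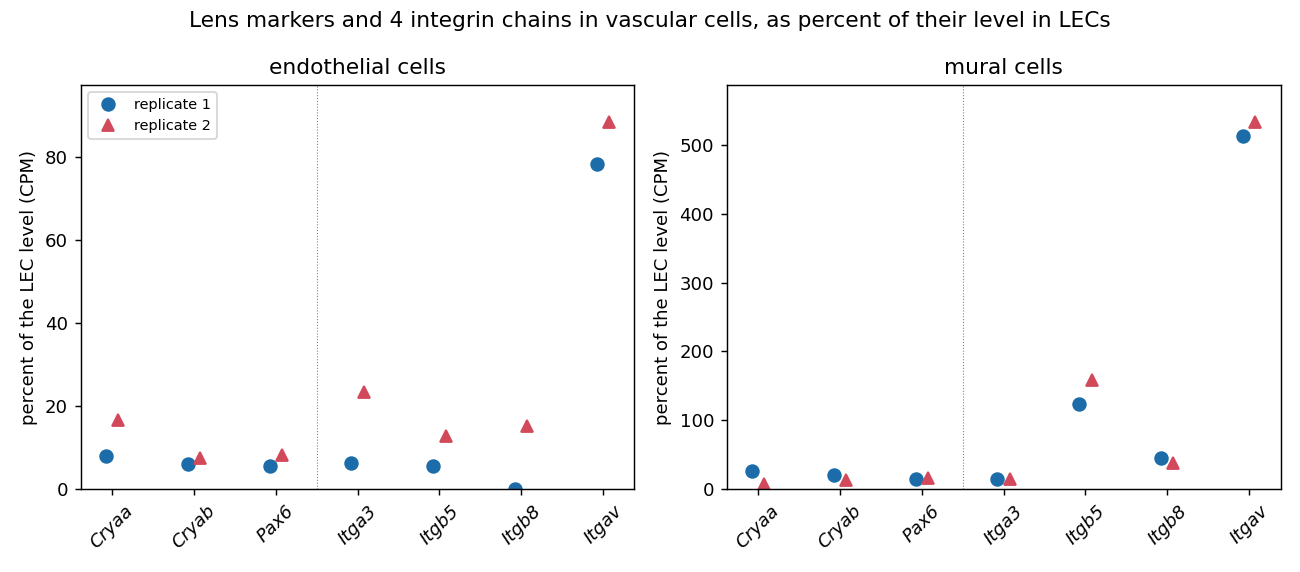
Level of 3 lens markers and 4 integrin chains in endothelial (left) and mural cells (right), as a percentage of their level in LECs, by pool. In endothelial cells Itga3, Itgb5 and Itgb8 lie between 0 and 23.5%, beside Cryaa, Cryab and Pax6 at 5.67% to 16.8%, and Itgav at 78.4% and 88.5%; in mural cells Itgb5 lies at 124% and 158%.

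Genes with the most similar course were sought over the 12 profiles of 6 groups in 2 pools, by Pearson correlation of log2(CPM + 5) among 5935 genes. The points share libraries and the correlations are descriptions. Itga3 was closest to Mme (0.985), a membrane peptidase, at a mean of 206 CPM in resting and 72.9 in early differentiating LECs, then to Myo6 and Inhba. Itga6 was closest to S100a16 (0.994), which rose from 2.36 CPM in resting to 75.2 in late differentiating LECs and to 447 in endothelial cells. Itgb1 was closest to Itga4 (0.997), its partner chain in the receptor for Vcam1 and fibronectin, at 306 CPM in mural and 70.6 in endothelial cells and at most 0.437 CPM in resting, cycling, early or late LECs. Itgb8 was closest to 1500004A13Rik (0.975), Herc4 and Bach2, Itga1 to Bcr, Naalad2 and Plat, and Itga5 to Sptlc2, Map3k11 and Plxnd1. Itgav was closest to Ptpn9, Dbndd2 and Pcdh18, and Itgb5 to Sept8, Epb41l2 and Sesn3.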

How the data were processed

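Lens epithelium from 2 pools of P2 pups was measured by single-cell RNA sequencing. The authors aligned reads to mm10 with Cell Ranger 6.1.1 and deposited a filtered table of raw UMI counts per pool, with no normalization. Barcodes between the 2nd and 97th percentiles of UMIs (948.76 to 20198.3) and genes, with at most 15% mitochondrial UMIs, were kept, and the 8% with the highest Scrublet score were removed per pool (scanpy 1.11.5). Groups were set by marker genes, with 3 or more of 8 markers for vessel cells and macrophages. Alpha crystallin (Cryaa and Cryab) at 1% or more of UMIs set the LEC gate. Group totals per pool ran from 641350 UMIs (mural) to 71313922 (LECs), and totals of the pools were 93839132 and 86033032 UMIs.

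UMI sums per group and pool were tested with edgeR 4.0.16 (quasi-likelihood, TMM, filterByExpr, pool as replicate block, since all sums of a pool come from 1 library). Adjusted p-values are Benjamini-Hochberg over all genes. The 3 fits held LECs, endothelial and mural cells, the 4 LEC groups, and Igfbp5-high and Igfbp5-low resting LECs. Scripts were tested on simulated data. All 10 chains were named. From each gene list at most 4 genes a comparison could be named, those called with the largest change among genes at 20 CPM or more, and for each chain at 20 CPM or more the 3 genes most like it. Further levels of a gene so named are given in other groups. Alternatives were DESeq2 1.42.0, other scaling, no filter, no block, other gates, thinning to 2000 UMIs and single pools, for which values are ratios of scaled CPM + 0.1 with no test. The chains and lists were chosen with earlier results of these data known. How barcodes were clustered in the study was not used here.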

Additional observations from a re-analysis of the deposited data

How the results depend on the processing

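The counts of calls kept within 1.5 times of the reported count in 142 of the alternatives and moved further in 20, and fold changes of the chains kept direction and side of the threshold in 760, moved in 13, lost the call in 36, gained it in 16 and reversed in 24. Chains called in late against early differentiating LECs were 5 in place of 8 with barcodes thinned to 2000 UMIs. In cycling against resting LECs they were 1 with DESeq2 and 1 without the replicate block, in place of 3. In Igfbp5-high against Igfbp5-low LECs they were 0 with DESeq2, 0 without the replicate block, 3 without the filter, 1 with thinning and 3 with gates of 18% and 20%, in place of 5. The block changed no other count of chains. All genes called with thinning were 4130 in endothelial cells against LECs, 2235 in mural against endothelial cells, 3318 in early against resting, 3179 in late against early, 4417 in cycling against resting and 1568 in Igfbp5-high against low LECs. Without the replicate block they were 3966, 4296 and 482 in early against resting, cycling against resting and Igfbp5-high against low, and with DESeq2 3778, 3810 and 601.

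Reversals concerned chains that were not called, except Itgb1 in late against early (-0.085 with library size alone). Itgav there was -0.32 with library size alone and -0.048 with gates of 8% and 10%, and Itgb5 was 0.0091 with DESeq2, 0.015 with RLE factors, 0.024 without doublet removal, 0.030 without upper limits, 0.065 with gates of 8% and 10% and 0.19 with gates of 18% and 20%. Itga3 in mural against endothelial cells was -0.44 without upper limits, -0.67 with gates of 4 markers, -0.47 with vessel barcodes under 1% alpha crystallin, an alternative chosen after seeing the data, and -0.11 with thinning. In early against resting Itga5 was 0.046 with gates of 18% and 20%, and with gates of 8% and 10% Itgb1 was 0.014 and Itgb4 -0.14. In cycling against resting Itga6 was -0.024 without doublet removal, -0.068 with thinning and -0.27 with gates of 8% and 10%, which passed, where Itgb8 was -0.43. In the Igfbp5 split Itga1 was 0.027 without upper limits, 0.029 with thinning and 0.31 with gates of 8% and 10%, and Itgb5 0.0098 with gates of 18% and 20%. The causes were not tested.

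Single pools moved the step of Itga2 from resting to early between 1.31 and 2.87, Itga3 in endothelial cells between -4.10 and -2.26 and Itgb5 there between -4.36 and -3.15. Itgb4 from early to late was -1.98 and -2.26 in replicates 1 and 2, beside -3.09 with both pools. The 0.1 CPM added for single pools exceeds its late levels of 0.0694 and 0.0870 CPM, so these values cannot be set against the joint one as a difference between pools. Without doublet removal Itgb5 in endothelial cells was -2.31 and Itga3 there -2.01. With 2 pools no spread between animals was measured, and chains at a few UMIs per group (Itgb4, and Itga2, Itga3 and Itgb8 in vessel cells) are limited by depth.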

Other observations

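Macrophages, 30 and 28 barcodes in the 2 pools, entered no test. They held Itgb5 at 116 and 183 CPM, Itgav at 109 and 122 and Itga6 at 103 and 145, levels above those of resting LECs, and Itgb1 at 174 and 213. Each of these rests on 28 UMIs or fewer per pool. Among the alpha chains followed here, the one with the most UMIs was Itgav in replicate 1 (44.7%) and Itga6 in replicate 2 (46.3%). Other alpha chains, among them Itga4, were left out of this ranking, so the main alpha chain of macrophages was not determined.

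Barcodes above the upper limits on UMIs or genes that passed the LEC gate and the late fiber score entered no group. Itga2 was at 12.98 and 17.3 CPM in them, Itgb8 at 11.9 and 15.5, Itga6 at 69.5 and 78.7 and Itga3 at 5.30 and 5.51. The first 3 of these levels lay under the late differentiating group in each comparison within a pool, and Itga3 lay over it. Itgb1 (150 and 160 CPM), Itgb5 (92.3 and 79.9) and Itgav (15.4 and 12.7) also lay under it in both pools. Itga1, Itga5 and Itgb4, at few UMIs, lay under it in replicate 1 and over it in replicate 2. These CPM carry no TMM scaling and no test, so a lower level is not particular to Itga2, Itgb8 and Itga6.

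Of the 16 other integrin chains listed, 4 were tested in vessel cells and LECs. Itga9, a receptor for tenascin and osteopontin, was at 35.0 and 50.7 CPM in endothelial cells against 4.68 and 4.92 in mural cells, while LECs held 3.53 and 3.15. Itga7, a laminin receptor chain of muscle, was at 23.4 and 35.7 CPM in mural cells and at 0 in endothelial cells of both pools, with 0.252 and 0.424 for LECs. In 12 adhesion complex genes tested, 9 were higher in mural cells than in LECs and 1 was lower, with a median log2 fold change of 2.17 beside -0.046 for all genes, among them Ptk2 (focal adhesion kinase) at 225 and 341 against 29.5 and 29.3 CPM and Vcl (vinculin) at 327 and 401 against 65.1 and 46.3. Of all genes 26.4% were higher and 25% lower in mural cells than in LECs. In late against early differentiating LECs 4 of 13 adhesion complex genes were higher and 3 lower with TMM scaling, where 25.2% of all genes were higher and 25.1% lower. With library size alone 3 were higher and 9 lower, where 860 of all genes were higher and 9013 lower. Ilk (integrin-linked kinase) was at 89.3 and 75.5 CPM in late and 55.3 and 47.6 in early differentiating LECs. Cd63, a tetraspanin, was at 29.2 and 34.1 CPM in endothelial cells, where LECs held 614 and 610 and mural cells 736 and 750.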
